A study of Mus musculus with 4 samples.

Results

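Tight junctions are the apical belts that seal the space between epithelial cells, and the 9 genes described here encode parts of that belt. They are Cldn1, Cldn4, Cldn7, Ocln, Marveld2, F11r, Tjp1, Tjp3 and Cgn, taken by symbol from 54532 mouse genes in the deposited count table. All 9 passed the low-count filter that left 14056 genes for testing, Cldn7 through the ALP libraries alone and Tjp3 through the control libraries alone. The cells were epidermal stem cells, the keratinocyte progenitors of the skin, isolated from C57BL/6 mice and cultured in EpiLife medium with its growth supplement. For 48 h they received either 30 μg/mL ALP, the Arctium lappa L. (burdock) polysaccharide of the series title, or 0.06% DMSO, which served as the control. Each group held 2 libraries of total RNA, named here replicate A and replicate B in the order of the table's columns. The labels do not say whether the ALP cultures also received DMSO. Nor do they tie the 2 libraries of a group to different mice or dishes, and the p-values below then reflect only library-to-library spread, which may be technical.

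In a tight junction, claudins form the paracellular strands and set which ions and small solutes pass. Occludin and tricellulin are MARVEL-domain proteins that shape the strands, and tricellulin gathers at the corners shared by neighbouring cells. JAM-A is an immunoglobulin-type adhesion protein that helps to place the junction. The ZO proteins bind claudin tails from the inside and tie them to actin, together with cingulin. In the epidermis the functional junctions lie in the granular layer, and claudin-1 is needed there for the water barrier.

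The libraries held between 15766244 and 17430345 counts, and 3 counts correspond to between 0.172 and 0.190 CPM, the field's unit of counts scaled to a common library total. Basal keratinocyte markers were present in every library. The basal keratins Krt5 and Krt14 measured 12312 to 21245 and 11170 to 19151 CPM. Trp63, the master regulator of stratified epithelium, measured 313 to 563 CPM. Krt15, a further basal keratin, measured 58.4 and 1.75 CPM after ALP against 251 and 201 CPM in control. These markers were not used to tell stem cells from other basal keratinocytes. Of all genes tested, 30.9% changed by edgeR's quasi-likelihood test (Benjamini-Hochberg adjusted p below 0.05), 18.0% upward and 12.9% downward. The 2 libraries of one group lay wholly on one side of the other group's for 75.7% of all genes. ALP replicate B stood apart from ALP replicate A in keratinocyte differentiation markers, which summed to 95.9 and 1063 CPM. Without ALP replicate B the log2 fold changes were 1.30 for Cldn4, 3.51 for Cldn7, 0.32 for Tjp1, 0.34 for Cgn and -0.24 for Cldn1. A single ALP library is left in that fit, so its spread comes from the control pair alone.

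After ALP the largest called changes among the 9 genes were in claudins. Cldn7 and Cldn4 rose, by 13.1-fold and 2.86-fold, the ZO-1 gene Tjp1 rose by 1.30-fold, and Cldn1 was 1.25-fold lower. Ocln, Marveld2 and F11r showed differences of at most 0.16 on the log2 scale and did not pass, nor did Cgn and Tjp3. Thus 4 of 9 genes changed, 3 upward and 1 downward, or 44.4% against 30.9% of all genes tested. Cldn7, among the 3, passed the low-count filter through the ALP libraries alone, so its rise and this share are a description. In 7 of 9 the groups did not overlap, beside 75.7% of all genes tested. The median log2 fold change of the 9 genes was 0.08, against -0.0029 over all genes tested. All 4 calls need both control libraries and the low-count filter. Their loss was not particular to the 9 genes, since in the same fits the calls among all genes tested were lost as well. Without either control library the 4 genes kept their direction. Without the low-count filter, 3 of the 9 rose and 1 fell at an unadjusted p under 0.05 (edgeR), beside 7068 of 25280 genes tested. The same 4 genes were below an adjusted p of 0.05 in the authors' deposited table, which rests on the same counts and is not independent.

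**Figure D1:**
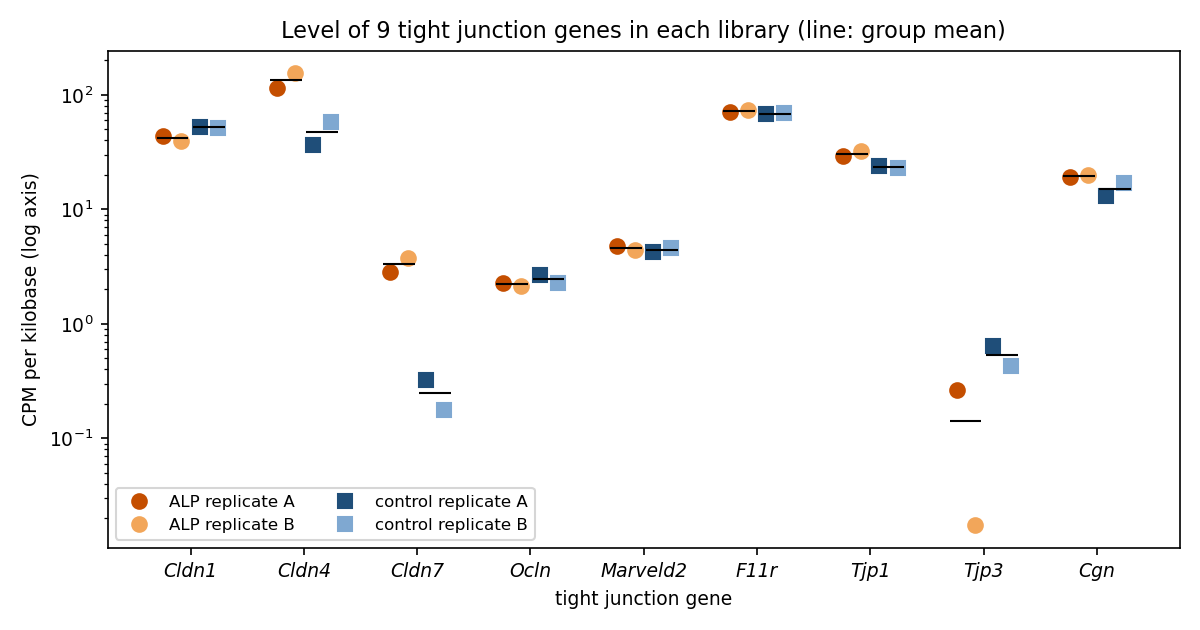
Level of each of the 9 genes in each library, as TMM-scaled CPM per kilobase of gene length on a log axis; circles are ALP libraries, squares are control libraries and horizontal lines are group means (n = 2). Cldn7 lay at 2.85 and 3.75 after ALP against 0.320 and 0.176 in control, whereas the F11r points lay between 67.6 and 73.8.

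Cldn4, which encodes a claudin of many simple and glandular epithelia, lies on chromosome 5 (134945119 to 134946934, minus strand, GRCm38). It measured 208 and 279.5 CPM in the ALP libraries and 65.5 and 104.8 CPM in the controls. Both ALP libraries were above both controls, although the libraries within each group also differed. The log2 fold change was 1.52 ± 0.25 (SE, n = 2 per group; adjusted p = 0.0162, edgeR). With only control replicate B as reference it was 1.21, and with only control replicate A it was 1.90.

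Cldn7, which encodes a claudin that binds the adhesion protein EpCAM, lies on chromosome 11 (69964779 to 69967885, plus strand). Its counts were 96 and 113 after ALP against 11 and 6 in control, or 5.55 and 7.31 CPM against 0.623 and 0.343 CPM. The groups were far apart, but the control level rests on few reads. Cldn7 passed the low-count filter through the ALP libraries alone, so its rise is a description. The log2 fold change was 3.71 ± 0.38 (adjusted p = 0.0149, edgeR), and it was 3.35 or 4.19 with a single control library, replicate A or replicate B respectively.

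Cldn1, the main barrier claudin of the epidermis, lies on chromosome 16 (26356642 to 26371841, minus strand). It measured 212 and 191 CPM after ALP and 254 and 251 CPM in control. The ALP libraries lay below the controls by a small margin, and Cldn1 fell by 0.32 ± 0.09 on the log2 scale (adjusted p = 0.0441, edgeR). This call is at the edge of the threshold: the earlier form of edgeR's quasi-likelihood fit gave an adjusted p of 0.0503. DESeq2 gave an adjusted p of 0.0369 and limma-voom one of 0.0389.

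The annotated promoters of these 3 claudin genes are shown because 2 of the genes rose and 1 fell. Each line gives, from RefSeq on GRCm38, the 250 bases before and 50 bases after the start site, 5′ to 3′ on the gene's strand. Capitals mark matches on either strand to TGANTCA, the site of AP-1 factors, or to CAGGTG, the E-box bound by the Snail and ZEB repressors. AACCNGTT, the site of grainyhead factors, was searched in the same way.
Cldn4 promoter, chr5:134946885-134947184, minus strand: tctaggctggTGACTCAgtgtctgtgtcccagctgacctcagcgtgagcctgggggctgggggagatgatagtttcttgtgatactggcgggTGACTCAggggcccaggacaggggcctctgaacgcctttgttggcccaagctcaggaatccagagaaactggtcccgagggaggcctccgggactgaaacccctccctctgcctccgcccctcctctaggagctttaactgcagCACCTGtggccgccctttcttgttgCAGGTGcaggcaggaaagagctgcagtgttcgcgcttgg
Cldn7 promoter at its first start site, chr11:69964529-69964828, plus strand: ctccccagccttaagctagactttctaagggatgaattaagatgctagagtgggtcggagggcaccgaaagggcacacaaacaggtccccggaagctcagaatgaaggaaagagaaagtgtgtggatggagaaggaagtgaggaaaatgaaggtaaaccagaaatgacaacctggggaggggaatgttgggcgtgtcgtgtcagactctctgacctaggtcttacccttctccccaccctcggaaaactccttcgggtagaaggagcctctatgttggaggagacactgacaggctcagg
Cldn7 promoter at its second start site, chr11:69965171-69965470, plus strand: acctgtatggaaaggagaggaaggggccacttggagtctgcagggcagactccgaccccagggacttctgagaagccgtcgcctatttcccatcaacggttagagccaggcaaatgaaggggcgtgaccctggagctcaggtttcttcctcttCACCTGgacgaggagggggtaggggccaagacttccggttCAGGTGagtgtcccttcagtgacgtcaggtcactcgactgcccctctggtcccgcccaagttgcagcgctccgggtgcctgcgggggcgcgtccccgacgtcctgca
Cldn1 promoter, chr16:26371790-26372089, minus strand: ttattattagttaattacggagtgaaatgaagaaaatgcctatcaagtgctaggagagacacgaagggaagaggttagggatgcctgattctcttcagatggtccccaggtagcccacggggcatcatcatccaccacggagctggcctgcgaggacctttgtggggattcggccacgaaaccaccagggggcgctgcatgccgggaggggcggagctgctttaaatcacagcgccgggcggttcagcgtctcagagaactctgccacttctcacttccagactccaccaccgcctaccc

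The Cldn4 window held 2 matches to TGANTCA, which begin 240 and 158 bases before the start site. Of all 32851 promoter windows in the table, 7.81% held such a match and 0.460% held at least 2. The Cldn4 window also held 2 matches to CAGGTG, as did the second Cldn7 window, against 20.2% of all windows with a match and 2.88% with at least 2. Neither the Cldn1 window nor the first Cldn7 window held any of the 3 motifs. Among the 9 genes, with 13 windows in all, TGANTCA matched in Cldn4 and F11r, CAGGTG in 6 genes, and AACCNGTT in Cgn, where 2.09% of all windows matched. Matches to different motifs do not overlap each other, but the windows of Ocln overlap, as do those of Marveld2, so that 1 match of each gene lies in both of its windows. A match describes the letters only, and says nothing of whether a factor binds there in these cells.

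Because Cldn4 rose while Cldn1 was lower, the make-up of the claudin transcripts differed between the groups. Per kilobase of gene length, Cldn4 stood at 2.61 and 3.91 times the level of Cldn1 in the ALP libraries, and at 0.689 and 1.11 times in the controls. In control the order of these genes was not settled, since their libraries overlapped, while after ALP both libraries put Cldn4 first. Cldn4 made up 60.3% and 65.9% of the summed level of all claudins (claudin-domain genes left out) after ALP and 34.7% and 46.0% in control. Cldn1 made up 23.1% and 16.9% after ALP and 50.4% and 41.2% in control. The summed level itself was higher after ALP, at 189.7 and 233 CPM per kilobase against 104 and 126. Despite its large fold change, Cldn7 supplied only 1.55% ± 0.0728 of the sum after ALP and 0.224% ± 0.119 in control (SD, n = 2). These shares were not tested, and with 2 libraries against 2 no exact permutation test could reach 0.05.

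**Figure D2:**
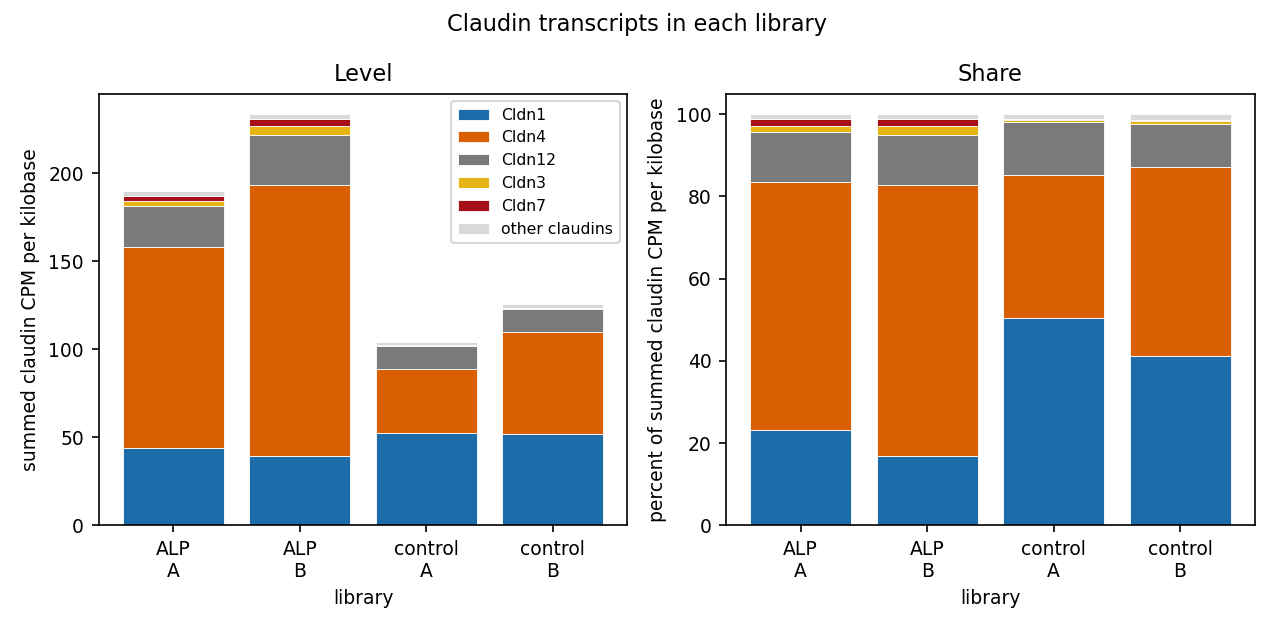
Claudin transcripts in each library, as summed TMM-scaled CPM per kilobase of gene length (left) and as percent of that sum (right); each colour is 1 gene and grey at the top holds the remaining claudins. Cldn4 takes 60.3% and 65.9% of the ALP bars and 34.7% and 46.0% of the control bars, and Cldn1 is the largest part of the bar only in control replicate A, at 50.4%.

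Cldn3, Cldn6 and Cldn12 also rose. Of 28 listed claudins and claudin-domain genes found in the table, 8 were tested, and 5 of these rose, Cldn4 and Cldn7 among them, and 1, Cldn1, fell. That is 75% called, against 30.9% of all genes tested in either direction, 18.0% upward and 12.9% downward. Cldn6 and Cldn7 passed the low-count filter through the ALP libraries alone and Cldn8 through the controls alone, so these counts and the share are a description. Cldn3, the neighbour of Cldn4 at a distance of 39.3 kb on chromosome 5, measured 3.59 and 6.21 CPM after ALP and 0.623 and 1.09 CPM in control. Its log2 fold change was 2.50 ± 0.44 (adjusted p = 0.0175, edgeR). Cldn6, a claudin of embryonic epithelia, had 30 and 31 counts after ALP against 1 and 6 in control and rose by 3.18 ± 0.60 on the log2 scale (adjusted p = 0.0191, edgeR). Cldn12, an atypical claudin without the usual tail for ZO proteins, rose from 55.8 ± 0.506 to 109 ± 15.6 CPM (mean ± SD, n = 2; adjusted p = 0.0149, edgeR). Cldn8 had 23 and 4 counts after ALP and 41 and 47 in control and did not pass (adjusted p = 0.0856, edgeR), and Cldnd1, a claudin-domain gene, showed a log2 difference of -0.09. Cldn5, the claudin of blood vessels, was among 11 genes of the list with 0 counts in every library. Claudins resemble each other in sequence, and the sources used here do not state how reads that align equally well to several genes were handled.

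The MARVEL genes Ocln and Marveld2 are neighbours on chromosome 13, with 43.2 kb between them, and neither passed. Ocln, which encodes occludin (100496507 to 100552718, minus strand), measured 9.55 and 9.12 CPM after ALP and 11.3 and 9.54 CPM in control. The libraries of the groups overlapped, and the log2 difference was -0.16 ± 0.18 (adjusted p = 0.521, edgeR). Marveld2, which encodes tricellulin (100595957 to 100616971, minus strand), measured 16.2 and 15 CPM after ALP and 14.3 and 15.5 CPM in control. These values were interleaved, with a log2 difference of 0.07 ± 0.14 (adjusted p = 0.737, edgeR). Marveld3, the other member of this family, measured 4.63 and 2.65 CPM against 6.85 and 6.28 CPM and did not pass (adjusted p = 0.0837, edgeR). Lsr, which encodes the angulin that brings tricellulin to cell corners, rose by 0.56 ± 0.14 on the log2 scale (adjusted p = 0.0351, edgeR). The exons of Gm4673 on the opposite strand cover 43.6% of the exon bases of Lsr, and that gene had 448 counts against 3227. Without stated strand the reads of the 2 cannot be told apart. Ildr1, another angulin gene, showed a log2 difference of -0.15 and did not pass.

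F11r, which encodes JAM-A (chromosome 1, 171437535 to 171464603, plus strand), differed little between the groups. It measured 189 and 197 CPM after ALP and 180.0 and 185 CPM in control. The ALP libraries were higher by a few percent, and the log2 difference of 0.08 ± 0.08 did not pass (adjusted p = 0.460, edgeR). Cxadr, which encodes the coxsackievirus and adenovirus receptor, an adhesion protein of the same class, behaved differently. It measured 208 and 157 CPM after ALP and 373 and 311 CPM in control, and fell by 0.91 ± 0.16 on the log2 scale (adjusted p = 0.0180, edgeR). Exons of Btg3 on the opposite strand cover 9.39% of its exon bases. Jam2 was rare, at 5 to 13 counts per library, and did not pass.

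Among the scaffolds, Tjp1, which encodes ZO-1 (chromosome 7, 65296165 to 65527781, minus strand), measured 227 and 250.1 CPM after ALP and 187 and 179.9 CPM in control. All ALP values were above all control values, and Tjp1 rose by 0.38 ± 0.09 on the log2 scale (adjusted p = 0.0295, edgeR).

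Tjp3, which encodes ZO-3 (chromosome 10, 81273207 to 81291581, minus strand), was rare, at 17 counts and 1 count in ALP replicates A and B against 42 and 28 in control. Exons of Apba3 on the opposite strand cover 1.08% of the exon bases of Tjp3, and that gene had 2676 counts against 88. For Tjp3 both ALP libraries lay below both controls, but they stood far apart. The log2 difference of -1.85 ± 0.75 did not pass (adjusted p = 0.108, edgeR). It was -1.0 without ALP replicate B and -4.80 without ALP replicate A. That last value rests on the single count of ALP replicate B, a ratio to the controls of 0.0325 with a 95% exact (Clopper-Pearson) interval of 0.000811 to 0.187 for counting error only.

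Cgn, which encodes cingulin (chromosome 3, 94760069 to 94786492, minus strand), measured 114 and 119 CPM after ALP and 78.9 and 102.9 CPM in control. The groups did not overlap, yet the controls differed from each other by more than control replicate B differed from ALP. The log2 difference of 0.36 ± 0.14 did not pass (adjusted p = 0.0981, edgeR) and was 0.17 against control replicate B alone and 0.57 against control replicate A alone. It passed without ALP replicate A (adjusted p = 0.0270) and without ALP replicate B (adjusted p = 0.0358). Its paralog Cgnl1, which encodes paracingulin, rose by 0.87 ± 0.24 on the log2 scale from a lower level (adjusted p = 0.0426, edgeR).

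Compared per kilobase of gene length, the order of the 9 genes in control was F11r, Cldn1, Cldn4, Tjp1, Cgn, Marveld2, Ocln, Tjp3 and Cldn7. Means fell from 68.6 ± 1.34 CPM per kilobase for F11r to 0.248 ± 0.102 for Cldn7 (SD, n = 2). Cldn1 and Cldn4 overlapped in control, and the libraries of every other pair of neighbours in this order were apart. After ALP, Cldn4 came first at 134 ± 28.0 CPM per kilobase, followed by F11r at 72.5 ± 1.92 and Cldn1 at 41.6 ± 3.16. Cldn7 moved from the last place to the seventh at 3.30 ± 0.636, above Ocln, and Tjp3 came last at 0.141 ± 0.175.

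Other junction genes were called in both directions, and 26 of those tested were not called. Across 5 lists of claudins, MARVEL and angulin genes, immunoglobulin-type adhesion genes, scaffolds and polarity genes, 54 genes were tested, the 9 genes included. Of these, 18 rose and 10 fell, a share of 51.9% against 30.9% of all genes tested, and the median log2 fold change was 0.01. Without the 9 genes, 15 of 45 rose and 9 fell, with a median of -0.03. The lists were described by these counts only and carry no test of their own. Of these genes, Cldn6 and Cldn7 passed the low-count filter through the ALP libraries alone, and Tjp3, Cldn8, Pard3b and Wnk4 through the controls alone. Without either control library, edgeR's calls among the 54 genes were lost, as were those among all genes tested. DESeq2 called 18 upward and 8 downward, and limma-voom 18 and 9, with all libraries.

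Of 24 scaffolds and adaptors, 10 rose and 6 fell, 66.7% of the list against 30.9% of all genes tested. Micall2, which encodes a Rab13 partner that returns occludin to the membrane, rose by 1.58 ± 0.20 on the log2 scale, from 34.9 ± 5.48 to 105 ± 24.3 CPM. Amot, which encodes angiomotin, rose by 1.29 ± 0.24, Afdn, the gene of the nectin adaptor afadin, by 0.77 ± 0.13, and Shroom2, an actin regulator gene, by 0.73 ± 0.11. The adjusted p-values of these 4 genes lay between 0.0149 and 0.0182 (edgeR). Those that fell were Arhgef2, Magi1, Mpp5, Rab13, Tjap1 and Wnk4. Rab13, the gene of the Micall2 partner, measured 6.83 and 6.40 CPM after ALP against 11.3 and 10.3 CPM in control and fell by 0.71 ± 0.17 (adjusted p = 0.0342, edgeR). Tjap1, a junction-associated gene, fell by 0.92 ± 0.18 (adjusted p = 0.0214, edgeR), and Wnk4, which encodes a kinase of ion transport, fell by 1.39 ± 0.40 at 8 to 35 counts (adjusted p = 0.0497, edgeR). Of 14 polarity genes 2 rose and 2 fell, 28.6% of the list against 30.9% of all genes tested. Pard6b, of the PAR complex, rose by 1.17 ± 0.16 and Llgl2, of the basolateral Scribble group, by 0.37 ± 0.10. Prkcz, which encodes an atypical protein kinase C, fell by 0.56 ± 0.11, and Pard3b, at 7 to 49 counts, fell by 2.08 ± 0.44. Their adjusted p-values ran from 0.0149 to 0.0379 (edgeR). Wnk4 and Pard3b passed the low-count filter through the control libraries alone, so their falls are a description.

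**Figure D3:**
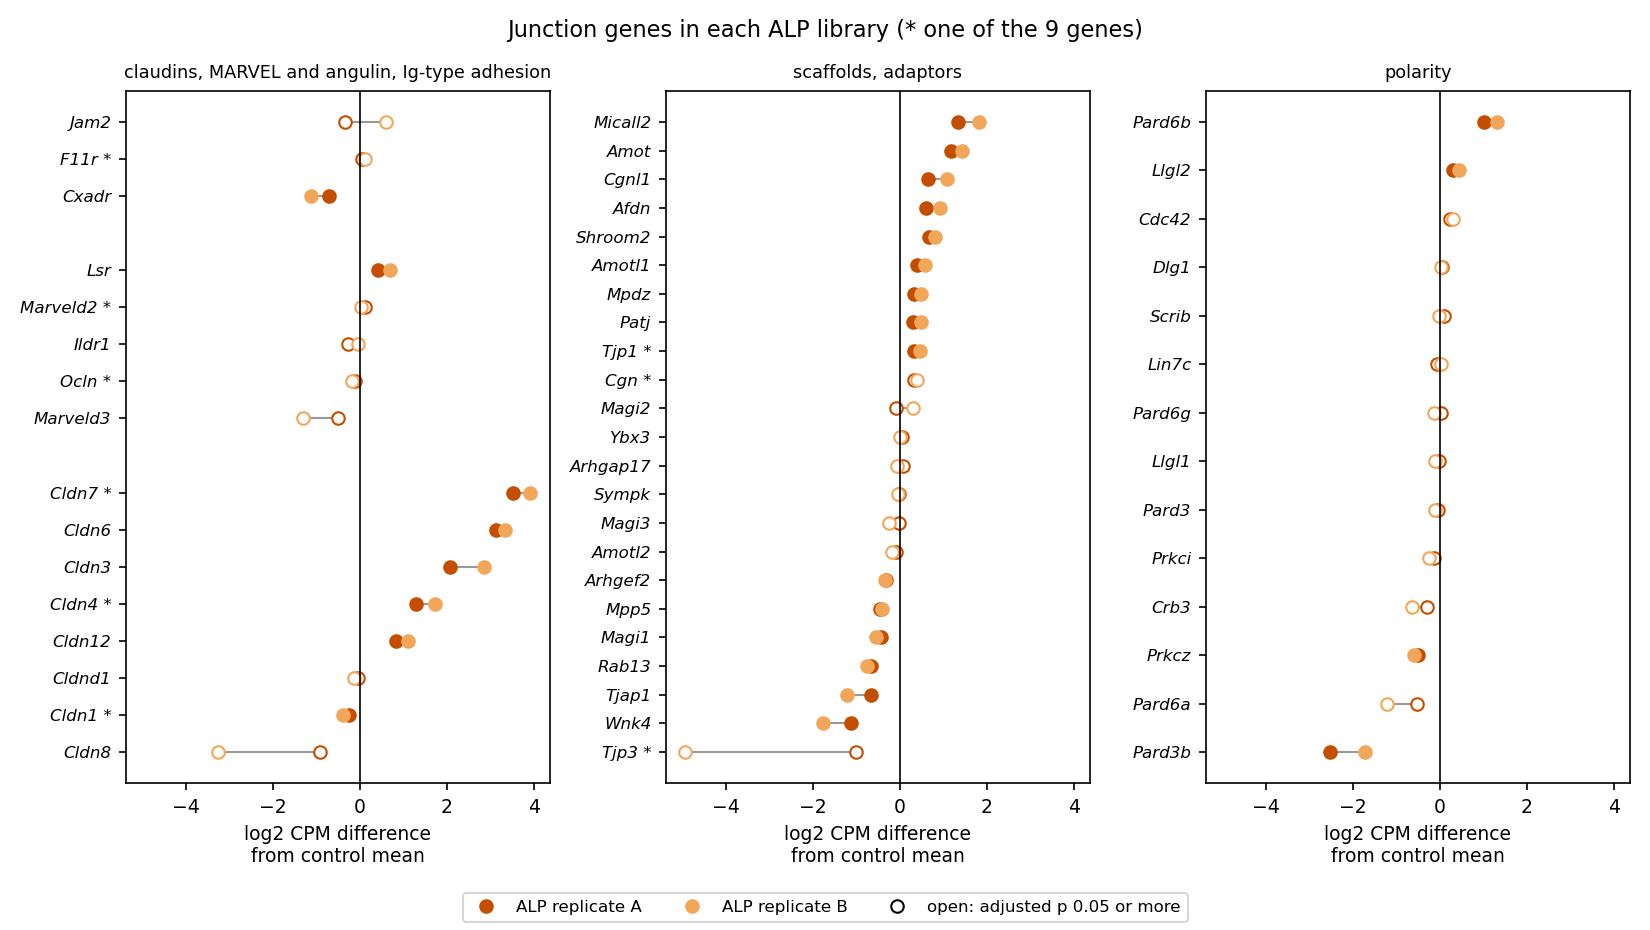
Difference of each ALP library from the control mean, in log2 CPM, for the tested junction genes, with 1 gene not shown; dark points are ALP replicate A, light points ALP replicate B, and filled points have an adjusted p under 0.05 in the fit of all libraries. The claudins that rose stand to the right, from Cldn12 at a fitted 0.97 to Cldn7 at 3.71, and Tjp3 and Cldn8 show the widest gap between the ALP libraries.

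Genes that act on claudins also changed. Epcam, whose protein holds claudin-7 and claudin-1 in the membrane, measured 423 and 583 CPM after ALP and 112 and 161 CPM in control. It rose by 1.88 ± 0.23 on the log2 scale, and St14, which encodes the protease matriptase that cleaves EpCAM, rose by 0.95 ± 0.13 (adjusted p = 0.0149 for both, edgeR). Spint2, which encodes a matriptase inhibitor, fell by 0.50 ± 0.09 (adjusted p = 0.0171), and Prss8, which encodes prostasin, fell by 0.86 ± 0.22 (adjusted p = 0.0355, edgeR). Exons of Kat8 on the opposite strand cover 6.59% of the exon bases of Prss8 and had 1395 counts against 814. Of 8 tested transcription regulators of epithelial junctions, 2 fell. That is 25% called, against 30.9% of all genes tested in either direction and 12.9% downward. Trp63 fell by 0.61 ± 0.14 and Grhl1, of the grainyhead family, by 1.46 ± 0.42, from 95.7 ± 14.6 CPM in control to 34.6 ± 21.7 CPM (SD, n = 2). The adjusted p-values were 0.0304 and 0.0491 (edgeR). Ovol1 and Ovol2, genes of zinc-finger repressors that maintain the epithelial state, did not pass (adjusted p = 0.0615 and 0.170, edgeR).

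Markers of keratinocyte differentiation and of simple epithelia also differed between the groups, and their summed levels went in opposite directions. In the differentiation list 6 of 14 genes fell and 1 rose, 50% called against 30.9% of all genes tested. All 14 had groups that did not overlap, beside 75.7% of all genes tested. Flg, among those that fell, passed the low-count filter through the controls alone. The summed level of the list was 1063 and 95.9 CPM in ALP replicates A and B against 3962 and 3267 CPM in control. Tjp3 and Cldn8 were likewise lowest in ALP replicate B. In the simple epithelium list of 5 genes, the 3 tested genes, the keratins Krt8, Krt18 and Krt7, rose, and the summed level was 67.5 and 96.4 CPM against 20.3 and 31.2 CPM. That is 100% called, but of 3 genes only, against 30.9% of all genes tested in either direction and 18.0% upward. Krt18 measured 13.1 and 23.3 CPM after ALP and 1.19 and 1.60 CPM in control, while Krt19, a further keratin of the list, had 3 to 6 counts per library. Muc1, a mucin gene of the list, had 5 and 3 counts after ALP against 10 and 15 in control, in the other direction, and was too rare to be tested. The part of either marker list in the junction results was not tested. In bulk RNA, fewer cells of a type and less RNA per cell cannot be told apart.

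Basal keratinocyte markers summed to 37772 and 31743 CPM after ALP against 49242 and 49571 CPM. Of the 8 genes, Itga6, Itgb1 and Itgb4 were higher and Col17a1 and Trp63 lower, 62.5% called against 30.9% of all genes tested. Krt5 and Krt14, which had the highest levels of the list, were lower but did not pass (adjusted p = 0.0719 and 0.0982, edgeR). Of the endothelial list, Cldn5 and Emcn had 0 counts in all libraries and Cdh5 at most 2, whereas Kdr and Pecam1 rose and Tek fell. Only these 3 were tested, so 100% were called, beside 30.9% of all genes tested. The list summed to 14.6 to 25.0 CPM against 6.17 to 7.71 CPM. Kdr passed the low-count filter through the ALP libraries alone, and Tek and the fibroblast marker Dcn through the controls alone. Fibroblast markers summed to 4.46 to 7.93 CPM after ALP and 13.6 to 17.5 CPM in control, with Lum at 0 in all libraries. Melanocyte markers summed to 57.9 to 69.6 CPM and 67.2 to 73.3 CPM. Immune markers summed to 5.17 to 7.29 CPM and 9.57 to 9.60 CPM, with Cd3e and Cd207 at 0 in all libraries. Merkel cell markers summed to 3.07 to 5.69 CPM and 1.25 to 1.43 CPM. Of these 4 lists, 1 of 5 tested genes fell in the fibroblast list (Dcn) and 1 of 6 in the melanocyte list (Mitf). In the Merkel cell list the 1 tested gene rose (Piezo2, which sensory cells also express). These counts stand beside 30.9% of all genes called. The part of these marker lists in the results was not tested.

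**Figure D4:**
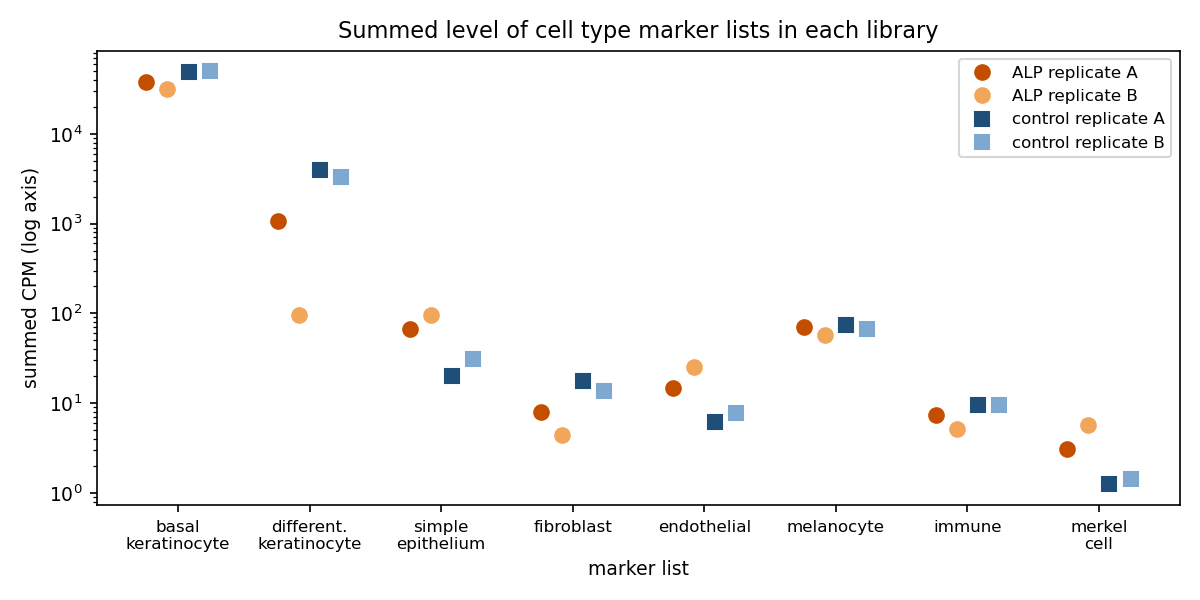
Summed TMM-scaled CPM of 8 cell type marker lists in each library, on a log axis; circles are ALP libraries and squares control libraries. The differentiation list spans the widest range, from 95.9 CPM in ALP replicate B to 3962 CPM in control replicate A, and the simple epithelium list is higher in both ALP libraries.

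The genes whose profile over the 4 libraries lay nearest to that of Cldn7 were Ereg, Etv5 and Tgfa. Nearness was the Euclidean distance between centred log2 (CPM + 0.5) profiles, among 10011 protein-coding genes whose mean reached 5 CPM, and it measured 0.38, 0.43 and 0.45. Ereg encodes the EGF receptor ligand epiregulin and measured 8.04 and 12.7 CPM after ALP and 0.849 and 0.857 CPM in control. Etv5 encodes an ETS transcription factor, and Tgfa encodes transforming growth factor alpha. With 4 libraries this order describes similar levels of change and nothing more.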

How the data were processed

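RNA of mouse epidermal stem cells was isolated in TRIzol, per the labels' protocols, and library preparation was done by a commercial service. The submitters' processing notes list HISAT2 2.0.5 and featureCounts 1.5.0-p3. They give GRCh38 as the build, whereas the gene identifiers are mouse, and all 9 genes have the coordinates of GENCODE M21 (GRCm38). The authors deposited 1 table of whole, raw counts per gene. The authors' deposited mean normalized signal per group and gene lengths stand beside them. The authors also deposited log2 fold changes and p-values, from a test that the sources do not name, and these were used only to count shared calls. For the 9 genes the deposited log2 fold changes nearly equal those of the DESeq2 alternative, with Cldn1 at -0.321449 in both. The shared calls and the DESeq2 calls are therefore not separate results. A further 4 columns of per-sample values, FPKM, were not used. Of the rows, 0 named no gene.

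The column numbers differ from those in the labels, so columns were assigned to groups only. Counts were fitted in R 4.3.3 with edgeR 4.0.16: filterByExpr (minimum count 10, minimum total 15), TMM, glmQLFit with the newer quasi-likelihood method, a two-sided glmQLFTest of ALP against control, and Benjamini-Hochberg adjustment over all 14056 genes, called under 0.05. It was tested on simulated data and leaves 2 residual degrees of freedom. Standard errors are the log2 fold change over the square root of F. CPM is TMM-scaled, and levels between genes are compared per 1000 bases of gene length. Alternatives used DESeq2 1.42.0, limma-voom (limma 3.58.1), other scaling, other filters and each library left out.

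The 9 genes and all lists were chosen with earlier results of these data known. Named are the 9 genes, every tested claudin, up to 4 further genes per junction list with the smallest p, and the 3 genes nearest in profile to the called member with the largest change. Cgnl1, the scaffold genes that fell and the single marker genes were named after their values were seen. For 1 gene of the scaffold list no value of its own is reported here, although the list's counts include it.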

Additional observations from a re-analysis of the deposited data

How the results depend on the processing

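Each of the 9 genes kept its direction in all 11 alternatives of the fit. Cldn4, Cldn7 and Tjp1 passed in 8 of 11 and Cldn1 in 7 of 11, while Ocln, Marveld2 and F11r passed in 0. Cldn4 ranged from 1.21 to 1.90, Cldn7 from 3.35 to 4.19, Tjp1 from 0.32 to 0.44, Cldn1 from -0.41 to -0.24 and Tjp3 from -4.80 to -1.0. DESeq2, limma-voom, median-of-ratios scaling, library totals alone and a filter on a mean of at least 1 CPM each called 3 of the 9 genes higher and 1 lower. Under the earlier quasi-likelihood method, an alternative chosen after seeing the data, 3 were higher and 0 lower, with Cldn1 at an adjusted p of 0.0503. Without the low-count filter edgeR called 0 genes of all those tested, and so 0 of the 9 and 0 of the wider junction lists in either direction, although 7068 genes had an unadjusted p under 0.05. There are then 25280 genes tested, and the cause was not tested. Leaving out each library in turn, between 0 and 7518 genes were called, 0 to 4 of the 9 higher and 0 to 2 lower, and 0 to 21 of the wider lists higher and 0 to 16 lower. The value 0 belongs to both fits without a control library. The largest counts belong to the fit without ALP replicate A. In both fits without an ALP replicate, the lone ALP library is assumed to vary like the control pair. The passes of Cldn4, Cldn7, Tjp1 and Cldn1 counted above include both of these fits. No paired analysis was possible because the column numbers match no label and the groups share a single number. No scaling moved the median of all genes by more than 0.04 on the log2 scale. Depth limits Tjp3 and the control level of Cldn7, and the interval given for Tjp3 covers counting error only, since amplified reads carried no stated molecular barcode.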
